A study of Arabidopsis thaliana with 32 samples.

Results

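Transcript levels and m6A peaks of 10 Arabidopsis thaliana genes of iron uptake and its control were followed through 12 RNA-seq libraries and 7 lists of m6A peaks. The genes were IRT1 (AT4G19690), IRT2 (AT4G19680), FRO2 (AT1G01580), FRO3 (AT1G23020), FIT (AT2G28160), BHLH38 (AT3G56970), BHLH39 (AT3G56980), BHLH100 (AT2G41240), PYE (AT3G47640) and BTS (AT3G18290), and all 10 were found among the 34262 genes of the expression table. They were chosen by name for their place in the iron pathway, with the fall of IRT1 and FRO2 under NAA in wild type already known. FRO2 had also been named before for the difference between the NAA responses of the genotypes. The wild-type response to NAA, and the difference between the responses of the genotypes, are therefore given for these 10 genes as a description without a test.

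The RNA-seq libraries came from whole seedlings, 15 days old, in 4 groups of 3: fip37 LEC1:FIP37 with NAA, fip37 LEC1:FIP37 with mock, wild type with NAA and wild type with mock. The synthetic auxin NAA was used at 50 µM, and treatment lasted 3 h. FIP37 belongs to the methyltransferase complex that places m6A, the methylation of adenosine within RNA. The name fip37 LEC1:FIP37 denotes a fip37 mutant that carries FIP37 behind the promoter of LEC1, a gene active mainly in embryos. The m6A lists came from wild type with NAA and with mock, from the tmk4 mutant with NAA, and from the lines 35S:FIP373A and 35S:FIP37, with 2 immunoprecipitated libraries for each. TMK4 encodes a transmembrane kinase that acts in auxin responses, 35S is a viral promoter active in most tissues, and no treatment is labelled for the 35S lines. No mutant of an iron gene and no change of iron supply was among the groups.

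Arabidopsis takes up iron by reduction. Proton pumps acidify the soil around the root, the reductase FRO2 turns ferric into ferrous iron at the surface of root epidermal cells, and IRT1 carries the ferrous iron inward. Transcription of FRO2 and IRT1 depends on the bHLH factor FIT, which works as a dimer with bHLH factors of subgroup Ib (BHLH38, BHLH39, BHLH100 and BHLH101). PYE is a further bHLH factor that represses genes of iron movement, and BTS is a ubiquitin ligase that limits the iron deficiency response.

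FIP37 transcripts (AT3G54170) were higher, not lower, in the line labelled as a fip37 mutant. They ranged from 58.4 to 120.1 RPKM in NAA libraries and from 57.9 to 91.8 RPKM in mock libraries labelled fip37 LEC1:FIP37, against 11.3 to 23.3 RPKM in wild type with NAA and 11.3 to 12.4 RPKM in wild type with mock. RPKM is the number of reads scaled to gene length and library size, so levels can be set side by side between genes. A single level per gene does not separate the resident FIP37 gene from the FIP37 transgene that the label names, and the source of the FIP37 reads was not tested. Every comparison with wild type below is a comparison of libraries with these labels. The steps of low values gave relative depths of 83.6% to 152% of the first wild-type mock library. For 7 of the 10 genes the same steps gave the whole reads behind each value, as the smallest whole numbers that all 12 values allow.

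Among the wild-type NAA libraries, replicate 3 was unlike the other two. Of the 18072 genes that averaged 1 RPKM or more and were tested, 9.47% differed at least 2-fold on the scale of log2(RPKM + 1) between that library and the mean of the others, against 1.98% for the first and 1.78% for the second library. Leaving it out took the genes called between NAA and mock in wild type to 1941 higher and 2171 lower, against 605 higher and 904 lower with all libraries (872 and 681 with all libraries after median-ratio scaling). Values that rest on this library are given with and without it.

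IRT1, the main root transporter of ferrous iron, was detected at more than 2 reads only in wild type with mock and in the third wild-type NAA library. No read was counted in any of the 3 fip37 LEC1:FIP37 NAA libraries, and the mock libraries of that line held 1, 2 and 1 reads. In wild type it had 0.0275, 0 and 2.32 RPKM (1, 0 and 94 reads) with NAA, against 9.55, 10.99 and 13.9 RPKM (303, 351 and 566 reads) with mock. The wild-type mock libraries did not overlap any other group. A count of 3 reads would correspond to 0.0875 to 0.113 RPKM in the fip37 LEC1:FIP37 NAA libraries, which is the level below which IRT1 was not detectable there. In whole seedlings, fewer cells that express a gene and less of its RNA per cell cannot be told apart.

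**Figure D1:**
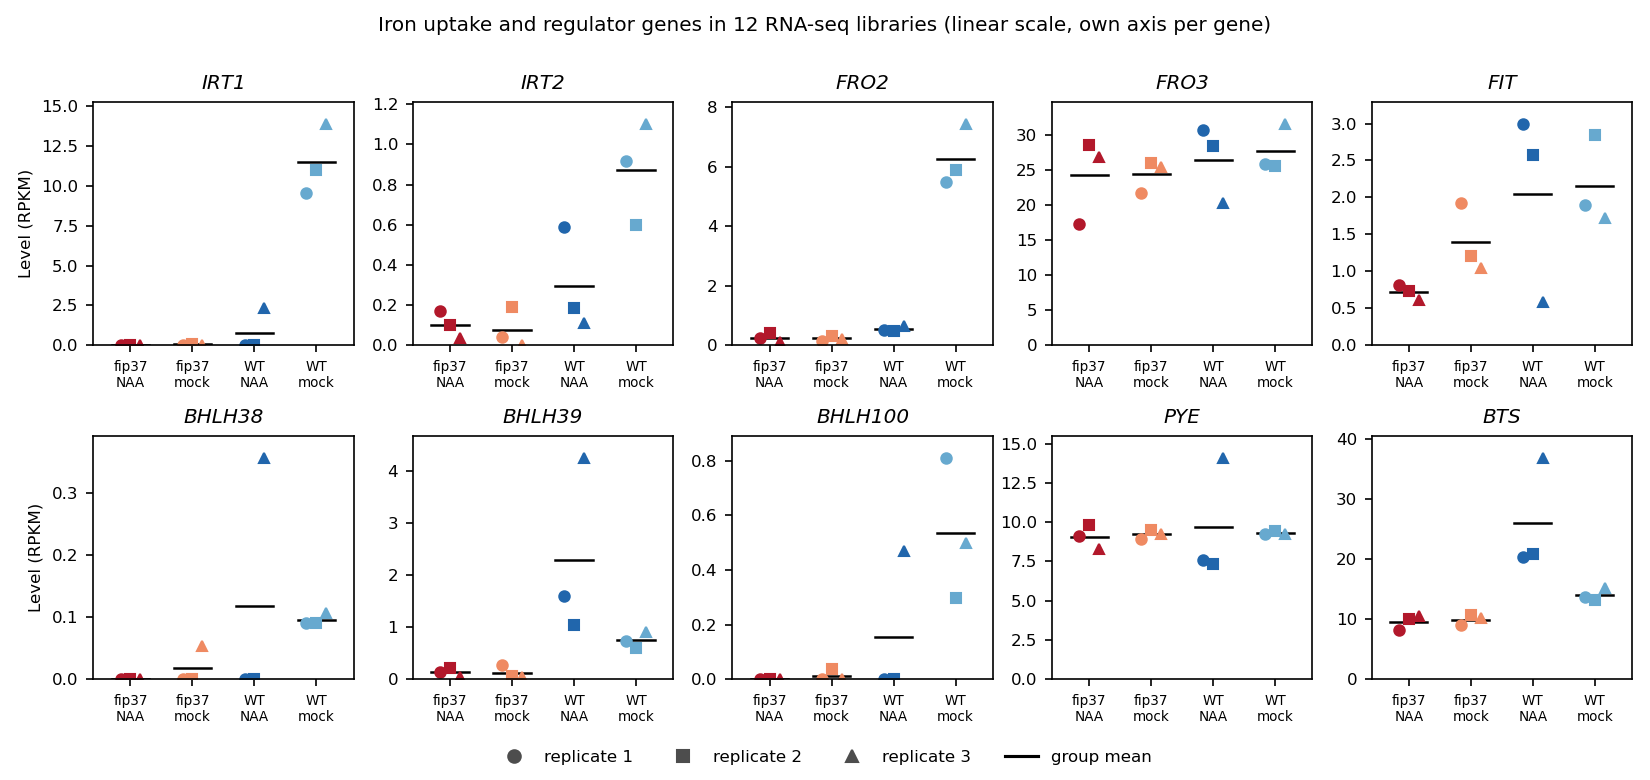
Level of each of the 10 genes in RPKM (linear axis, own scale per gene) in the 3 libraries of each group, with symbols for replicates and a line for the group mean. IRT1 and FRO2 are highest in wild-type mock. The third wild-type NAA library (triangle) lies above the others of its group for IRT1, BHLH38, BHLH39, BHLH100, PYE and BTS, and slightly for FRO2. It lies below them for IRT2, FIT and FRO3.

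FRO2, the root ferric chelate reductase, showed the same high group. It had 0.248, 0.400 and 0.116 RPKM in fip37 LEC1:FIP37 with NAA and 0.152, 0.322 and 0.201 RPKM in that line with mock. In wild type it had 0.514, 0.491 and 0.637 RPKM with NAA, against 5.48, 5.89 and 7.44 RPKM with mock. Here the third NAA library was close to the others, with 47 reads against 34 and 43. The mean level of FRO2 in wild type was 11.5-fold lower with NAA, and that of IRT1 was 14.7-fold lower with all libraries. Without the third NAA library the NAA mean of IRT1 was 0.0138 RPKM, from 1 read in 2 libraries, against 11.5 RPKM with mock. Without the third NAA library the log2 change of IRT1 in wild type was -3.61, against -3.04 with all libraries, and that of FRO2 was -2.27 against -2.22.

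IRT2, a close paralogue of IRT1 and its direct neighbour on chromosome 4 with no protein-coding gene between them, was low throughout. It had 0.169, 0.0981 and 0.0338 RPKM (4, 3 and 1 reads) in fip37 LEC1:FIP37 with NAA and 0.0390, 0.188 and 0 RPKM (1, 6 and 0 reads) with mock. Wild type had 0.587, 0.187 and 0.111 RPKM (19, 8 and 4 reads) with NAA, against 0.919, 0.597 and 1.1 RPKM (26, 17 and 40 reads) with mock. The wild-type groups did not overlap, but the first NAA library lay just under the lowest mock library. In the third NAA library IRT2 was at its group's lowest value, whereas IRT1 was at its highest. How reads matching both genes were counted is not stated, so the split between the paralogues is uncertain.

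FRO3, a ferric reductase placed in mitochondria, was the highest of the 10 genes in every group mean. It had 17.3, 28.5 and 26.9 RPKM in fip37 LEC1:FIP37 with NAA and 21.8, 26.0 and 25.4 RPKM with mock. Wild type had 30.7, 28.4 and 20.3 RPKM with NAA, against 25.9, 25.6 and 31.6 RPKM with mock. All 4 groups overlapped. The root surface reductase gene FRO2 and the mitochondrial FRO3 had a Pearson's r of 0.328 over the 12 libraries (log2(RPKM + 1)), which share groups.

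FIT, the bHLH factor required for IRT1 and FRO2 transcription, was lowest in fip37 LEC1:FIP37 with NAA, at 0.811, 0.727 and 0.614 RPKM. That line had 1.93, 1.204 and 1.04 RPKM with mock. Wild type had 3.00, 2.57 and 0.588 RPKM with NAA, against 1.89, 2.84 and 1.73 RPKM with mock. The first and second wild-type NAA libraries were at or above most mock libraries, while FRO2 there was far below all of them. The third NAA library was 4.74-fold below the mean of the others for FIT.

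Of the subgroup Ib factors, BHLH39 had the highest mean in each group but wild-type mock, where it averaged 0.751 RPKM and BHLH101 0.769 RPKM, and all 4 were at 6 reads or fewer in each library of fip37 LEC1:FIP37. BHLH39 had 0.146, 0.225 and 0.0388 RPKM (3, 6 and 1 reads) in fip37 LEC1:FIP37 with NAA and 0.268, 0.0719 and 0.0471 RPKM (6, 2 and 1 reads) with mock. Wild type had 1.60, 1.04 and 4.26 RPKM (45, 39 and 134 reads) with NAA, against 0.730, 0.605 and 0.917 RPKM (18, 15 and 29 reads) with mock. Every wild-type library was above every library of the other line, and within wild type every NAA library was above every mock library.

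BHLH100 had no read in any fip37 LEC1:FIP37 NAA library and 0, 1 and 0 reads with mock. Wild type had 0, 0 and 14 reads (0.467 RPKM in the third library) with NAA, against 19, 7 and 15 reads (0.809, 0.296 and 0.498 RPKM) with mock. BHLH38, which lies directly beside BHLH39 on chromosome 3, had no read in fip37 LEC1:FIP37 with NAA and 0, 0 and 1 reads with mock, and in wild type 0, 0 and 10 reads with NAA, against 2, 2 and 3 reads with mock. For both genes the whole signal under NAA came from the third wild-type library. BHLH101, the fourth factor of the subgroup, was listed at 0 in all 6 libraries of the mutant line, and had 7, 12 and 41 reads in wild type with NAA, against 10, 19 and 28 with mock.

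PYE was the steadiest gene outside that library. It had 9.11, 9.81 and 8.30 RPKM in fip37 LEC1:FIP37 with NAA and 8.94, 9.53 and 9.26 RPKM with mock. Wild type had 7.59, 7.35 and 14.1 RPKM with NAA, against 9.22, 9.44 and 9.27 RPKM with mock. The first and second NAA libraries lay below all mock libraries and the third above them. The wild-type log2 change of PYE was -0.01 with all libraries and -0.28 without the third.

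BTS, the ubiquitin ligase, moved opposite to the uptake genes in wild type. It had 8.23, 10.1 and 10.5 RPKM in fip37 LEC1:FIP37 with NAA and 8.95, 10.6 and 10.2 RPKM with mock. Wild type had 20.4, 20.9 and 36.8 RPKM with NAA, against 13.7, 13.2 and 15.2 RPKM with mock. The 3 NAA libraries were all above the mock libraries, and the mean was 1.85-fold higher with NAA. Without the third library the log2 change was 0.53, against 0.79 with all libraries.

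**Figure D2:**
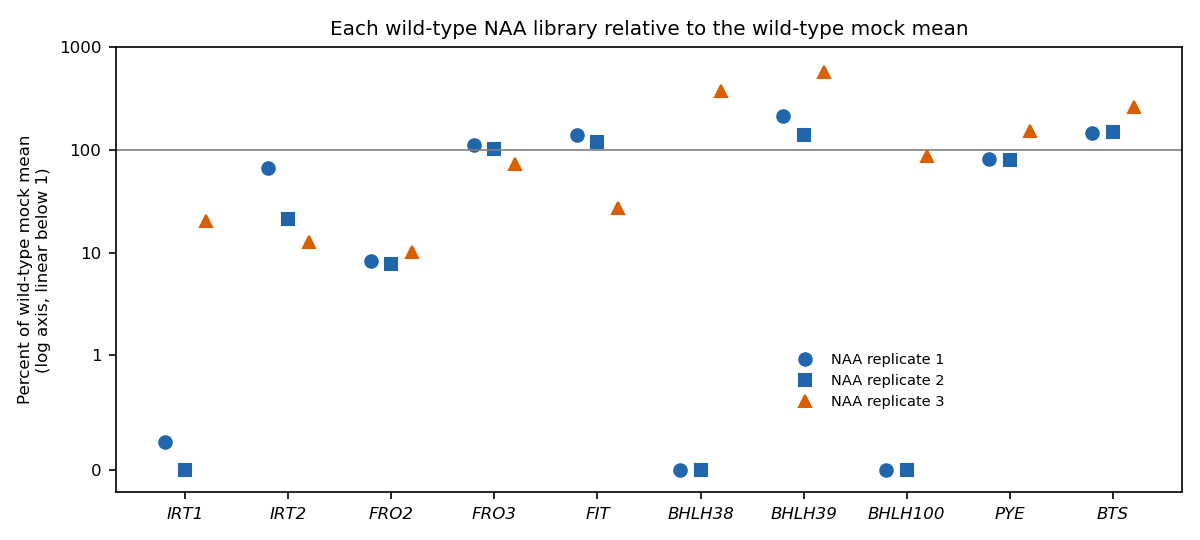
Level in each wild-type NAA library as a percentage of the wild-type mock mean for the 10 genes (log axis, linear below 1), with the third library in orange. FRO2 is low in all 3 libraries, whereas IRT1, BHLH38 and BHLH100 are at or near 0 in the first and second and measurable in the third.

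The order of the means differed between groups. In wild-type mock it ran FRO3, BTS, IRT1, PYE, FRO2, FIT, IRT2, BHLH39, BHLH100 and BHLH38, and the neighbours BTS and IRT1, IRT2 and BHLH39, and BHLH39 and BHLH100 overlapped in their single values. In fip37 LEC1:FIP37 with NAA and with mock FRO3 came first, BTS and PYE followed with overlapping values near 9 or 10 RPKM, and FIT was the next. Below FIT, FRO2 and BHLH39 overlapped in both groups, and IRT1 stood with BHLH38 and BHLH100 at the end. In wild type with NAA every neighbouring pair overlapped except BTS and PYE, and PYE and BHLH39.

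Whether NAA changed these genes in the line labelled fip37 LEC1:FIP37 was tested without the wild-type libraries whose NAA response was known at the choice. The choice was not wholly free of this line, since FRO2 had been named before for the difference between the NAA responses of the genotypes. Of the 10 genes, 6 had a mean of at least 1 RPKM: IRT1, FRO2, FRO3, FIT, PYE and BTS. IRT1 and FRO2 passed that filter only through wild-type mock and were near 0 in this line, so a fall could not have been called and no test is given for them. None of the other 4 was called at a limma adjusted p under 0.05, and none had an unadjusted p under 0.05. Over all 18072 genes tested, 0.376% were called higher and 0.0609% lower, so few calls were made anywhere in this comparison. FIT had the largest estimate, at -0.46 (SE 0.29, limma adjusted p = 0.813), where the 3 NAA libraries lay below the 3 mock libraries. BTS was at -0.05 (SE 0.19), PYE at -0.03 (SE 0.19), and FRO3 at -0.04 (SE 0.20), with limma adjusted p-values between 0.997 and 0.999. As a description, the estimates were 0.03 for FRO2 and -0.06 for IRT1.

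**Figure D3:**
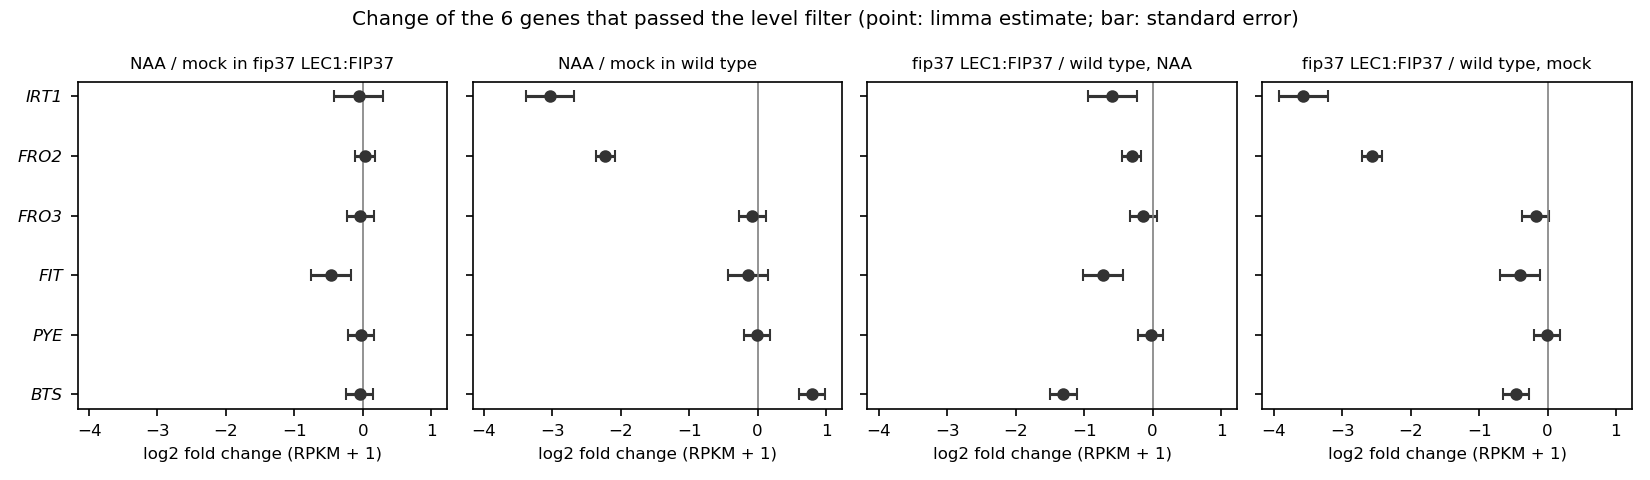
Log2 fold change on the scale of log2(RPKM + 1) for the 6 genes that passed the level filter, in the 2 NAA comparisons and the 2 genotype comparisons; points are limma estimates and bars are standard errors. IRT1 and FRO2 lie far below 0 in wild type under NAA and in the mock comparison of genotypes, and near 0 for NAA in the line labelled fip37 LEC1:FIP37. Their points are a description, since both passed the level filter only through wild-type mock and their fall in wild type was known at the choice. Both were already near 0 in the mock libraries of fip37 LEC1:FIP37, so a fall could not be measured there.

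Set beside it as a description, the wild-type log2 changes with NAA were -3.04 for IRT1, -2.22 for FRO2, 0.79 for BTS, -0.14 for FIT, -0.08 for FRO3 and -0.01 for PYE. Over all genes tested, 3.35% were called higher and 5% lower in that comparison. The NAA effect in fip37 LEC1:FIP37 minus that in wild type was 2.98 for IRT1, 2.26 for FRO2 and -0.84 for BTS, in a comparison in which 0.636% of all genes were called higher and 1.06% lower (115 and 191 genes, against 257 and 236 after quantile normalization). Both IRT1 and FRO2 were near 0 in the mock libraries of fip37 LEC1:FIP37, so a fall of the wild-type size could not be measured there.

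Between the lines under mock treatment, IRT1 and FRO2 were lower in fip37 LEC1:FIP37, with log2 estimates of -3.57 and -2.56. Both genes had to differ, since they entered the test only through wild-type mock, and those libraries also belong to the comparison that guided the choice of genes. The mean of FRO2 was 27.9-fold lower. BTS was at 9.93 ± 0.875 RPKM in fip37 LEC1:FIP37 and 14.05 ± 1.04 RPKM in wild type (SD, n = 3 each), and the groups did not overlap. Its log2 change of -0.46 (SE 0.19) missed the threshold with all libraries (limma adjusted p = 0.079) and passed it without replicate 3 of wild-type NAA, since all 4 groups give 1 estimate of spread per gene (adjusted p = 0.00538). FIT (-0.40, SE 0.29, limma adjusted p = 0.301), FRO3 (-0.17, SE 0.20, 0.510) and PYE (-0.01, SE 0.19, 0.974) were not called. Over all genes tested, 15.3% were called higher and 23.5% lower.

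With NAA in both lines, BTS was lower in fip37 LEC1:FIP37, at 9.61 ± 1.21 RPKM against 26.0 ± 9.35 RPKM in wild type (SD, n = 3 each). Its log2 change was -1.30 (SE 0.19, limma adjusted p = 0.000246), and it was -1.03 without the third wild-type NAA library (adjusted p = 4.32e-05). These wild-type libraries also served in the comparison that guided the choice of genes. FIT was at -0.72 (SE 0.29, limma adjusted p = 0.0641) with all libraries and at -1.14 (adjusted p = 0.000364) without that one. FRO3 (-0.13) and PYE (-0.03) were not called, with limma adjusted p-values of 0.611 and 0.911, and PYE was at 0.25 without the third wild-type NAA library. FRO2 was at -0.31 and IRT1 at -0.59, given without a test, and the estimate of IRT1 was -0.02 without that library. Over all genes tested, 19.2% were called higher and 24.6% lower, so a call of either direction was common here.

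The genes most like 4 of the members over the 12 libraries were named by Pearson's r of log2(RPKM + 1) among the genes tested. XTH16, a cell wall enzyme gene, followed IRT1 most closely (r = 0.987), with 18.3 and 17.5 RPKM in fip37 LEC1:FIP37 with NAA and mock and 25.7 and 60.6 RPKM in wild type with NAA and mock. It was followed by AT5G27710 (0.984), the sterol synthesis gene DWF1 (0.982), the splicing factor gene SCL30 (0.980) and AT1G70985 (0.978). FRO2 was most like AT5G57770 (0.972), the aquaporin gene TIP2;3 (0.970), AT1G70985 (0.970), AT5G27710 (0.966) and AT3G27390 (0.958). BHLH39 was most like the glutathione transferase gene GSTF8 (0.987), CYP72A15 (0.980), FRS7 (0.971), CLE13 (0.965) and OBP3 (0.965). BTS was most like WRKY40 (0.983), FRS7 (0.981), the receptor-like protein gene RLP30 (0.979), FBS3 (0.979) and AT1G32920 (0.973), and WRKY40 had 13.1 and 15.3 RPKM in fip37 LEC1:FIP37 with NAA and mock and 81.3 and 24.7 RPKM in wild type with NAA and mock. Among the members themselves r was 0.969 for IRT1 and FRO2 and 0.958 for BHLH39 and BTS. The fall of IRT1 and FRO2 was known at their choice and both passed the level filter only through wild-type mock, so their r is no separate result. The genes named as most like these members were likewise highest in wild-type mock, and BHLH39 was below the level filter. The libraries share groups and depth, so these values describe likeness over 4 groups.

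The other genes of the pathway were taken from 5 lists with 72 genes, of which 50 were tested. In fip37 LEC1:FIP37, NAA raised 1 of the 50 and lowered none, against 0.376% higher and 0.0609% lower over all genes. At an unadjusted p under 0.05, 3 more were lower and none more was higher. The gene called was VTL5, which belongs to the family of vacuolar iron transporters, at 20.8 ± 4.82 RPKM with NAA and 9.41 ± 0.761 RPKM with mock (SD, n = 3 each; log2 change 1.05, SE 0.17, limma adjusted p = 0.0186). The call was lost without mock replicate 2 or 3 or NAA replicate 1 or 2 of that line (adjusted p = 0.0957, 0.0771, 0.0545 and 0.0794). In wild type VTL5 also rose, to 102 ± 16.6 RPKM with NAA, against 44.2 ± 5.49 RPKM with mock (1.18, limma adjusted p = 0.00166). The median log2 change of the 50 genes in fip37 LEC1:FIP37 was -0.10, and that of all genes tested was -0.04.

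In wild type, NAA raised 5 and lowered 4 of the 50 pathway genes (median -0.04, all genes -0.06), against 3.35% and 5% of all genes. Among the regulators, 1 of 8 rose: BHLH11, a repressor of the iron response, at 7.74 ± 1.87 RPKM with NAA and 2.15 ± 0.411 RPKM with mock (1.46, limma adjusted p = 0.00122). Of 11 genes of root iron acquisition, 2 rose and 3 fell. ABCG37, which exports coumarins that mobilise iron, was at 18.0, 11.1 and 13.3 RPKM with NAA and 5.74, 5.64 and 5.78 RPKM with mock (1.14, limma adjusted p = 0.00215). COPT2, a copper transporter gene of the root, was at 3.29, 4.17 and 4.10 RPKM with NAA and 9.36, 7.31 and 8.77 RPKM with mock (-0.96, limma adjusted p = 0.00423). The other calls of that list were KELCH-IRON (AT3G07720, 0.52), GRF11 (-0.76) and the iron and manganese transporter gene NRAMP1 (-0.66), and those of other lists were NRAMP3 (0.69), VTL5 and FRO4 (-1.01), a copper-related reductase gene. The calls of KELCH-IRON and FRO4 were lost under 13 and 10 of the 17 alternatives, and those of GRF11, NRAMP1 and NRAMP3 under 3, 4 and 5 (adjusted p = 0.0502 to 0.168 over the 5 genes). Without the third NAA library 13 of the 50 were called higher and 6 lower (10.7% and 12% of all genes).

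Of the 50 pathway genes, 1 was called higher and 1 lower for the difference between the NAA effects of the lines. Over all genes 0.636% were called higher and 1.06% lower. Both pathway genes called were acquisition genes. The NAA effect in fip37 LEC1:FIP37 minus that in wild type was -1.08 for ABCG37 (SE 0.24, limma adjusted p = 0.0482) and 1.11 for COPT2 (SE 0.23, limma adjusted p = 0.0355). The coumarin genes COSY, F6H1 and BGLU42 were not called in this comparison. ABCG37 had 8.12, 8.68 and 7.74 RPKM in fip37 LEC1:FIP37 with NAA and 6.82, 9.88 and 6.90 RPKM with mock, and COPT2 had 16.3, 15.2 and 16.0 RPKM with NAA and 13.4, 11.5 and 18.5 RPKM with mock. Both calls were lost under 12 of the 17 alternatives (adjusted p up to 0.130 and 0.113), and without the third wild-type NAA library 2 of the pathway genes were called higher and 7 lower (5.86% and 6.52% of all genes).

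Between the lines under mock treatment 10 of the 50 pathway genes were higher and 7 lower in fip37 LEC1:FIP37 (median 0.28, all genes -0.07), where 15.3% of all genes were called higher and 23.5% lower. When replicate 3 of wild-type NAA was left out, 21 were higher and 8 lower (20.2% and 28.9% of all genes). Calls in either direction were thus common over all genes, and the counts below describe the lists without setting them apart. Iron transport within the plant had 5 of 11 genes higher and none lower. YSL1, a transporter of iron bound to nicotianamine, was at 34.0 ± 2.02 RPKM in fip37 LEC1:FIP37 and 11.3 ± 2.92 RPKM in wild type (1.53, limma adjusted p = 0.00385), and the nicotianamine synthase gene NAS1 was at 1.13 (limma adjusted p = 0.0108). NAS3 was at 80.4 ± 21.7 RPKM and 19.5 ± 15.5 RPKM in these groups (2.23, limma adjusted p = 0.0487), a call lost under 10 of the 17 alternatives (adjusted p up to 0.173). Of 8 regulators, URI (-0.86, limma adjusted p = 0.000476) and ILR3 (-0.56, 0.00588), bHLH factors that act above FIT and subgroup Ib, were lower. Of 11 acquisition genes, COPT2 (0.69) and the coumarin synthase gene COSY (0.64) were higher, and GRF11 (-0.83), the proton pump gene AHA2 (-0.72) and the metal tolerance gene MTP3 (-0.67) were lower. AHA2 lost its call without wild-type mock replicate 1 (adjusted p = 0.0525) and MTP3 without replicate 3 (0.0538). Among 8 storage genes, the seed ferritin gene FER2 was higher (1.70), and VTL5 (-2.11) and VTL2 (-0.98) were lower. VTL2 lost its call without the first wild-type mock or the second fip37 LEC1:FIP37 mock library (0.0789 and 0.0582). Of the 12 other FRO and ZIP genes, FRO8 (1.47) and the chloroplast reductase gene FRO7 (0.80, a call lost under 11 of the 17 alternatives) were higher.

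With NAA in both lines 13 of the 50 genes were higher and 11 lower in fip37 LEC1:FIP37 (median 0.09, all genes -0.05), near the 19.2% higher and 24.6% lower over all genes. When replicate 3 of wild-type NAA was left out, 13 were higher and 16 lower (19.8% and 30.7% of all genes). Of 11 acquisition genes 2 were higher and 5 lower, with COPT2 (1.80, limma adjusted p = 7.36e-06) and COSY (0.36) higher, and AHA2 (-1.05, 0.000968), F6H1 (-0.73) and ABCG37 (-0.70, 0.0062) among the lower ones. Of 8 storage genes 3 were higher, the ferritin genes FER1 (1.30), FER2 (1.26) and FER3 (0.84), and VTL5 was lower (-2.25). Of the FRO and ZIP genes 5 were higher and none lower, with FRO8 at 1.57, FRO7 at 1.2 and FRO6 at 1.12. In iron transport NAS1 (1.98) and YSL1 (1.25) were higher and ZIF1 (-0.60) lower, and 4 of 8 regulators were lower, including BHLH11 (-0.71), URI (-0.44) and ILR3 (-0.40), while BHLH34 (0.32) was higher. The calls of ZIF1, URI, ILR3, BHLH34, COSY, F6H1 and FER3 were lost under 7, 3, 5, 14, 10, 3 and 4 of the 17 alternatives, and that of BHLH11 without the first wild-type NAA library (adjusted p = 0.0519). The third wild-type NAA library was at least 2-fold below the others for 4 of 8 storage and 5 of 12 FRO and ZIP genes. Without that library FER3 was at 0.45 (limma adjusted p = 0.0593). With 1 library left out at a time, estimates fell as low as 0.83 for FER1, 0.71 for FRO6 and 0.75 for YSL1, and their calls held. The genotype comparisons share the wild-type libraries with the NAA comparison in wild type.

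Markers of root and green tissue also differed between the groups. The summed level of 14 root markers other than PYK10 ranged from 36.1 to 63.1 RPKM in fip37 LEC1:FIP37 with NAA and from 48.1 to 68.4 RPKM with mock, and from 38.6 to 96.0 RPKM in wild type with NAA and from 120.1 to 129.2 RPKM with mock. Without PYK10, wild-type mock, where IRT1 and FRO2 were high, was the group with the highest sums and did not overlap the others. With PYK10 the highest sums were those of fip37 LEC1:FIP37 with mock. Of the 14 markers, 5 passed the level filter only through wild-type mock, so their sum leans on genes that are high in that group. No root marker was at 0 in all 3 libraries of any group. PYK10, a beta-glucosidase of the root, went the other way between the lines, so with it the sums were 782 to 850 RPKM and 886 to 1296 RPKM in fip37 LEC1:FIP37 with NAA and mock, and 325 to 356 RPKM and 524 to 600 RPKM in wild type with NAA and mock.

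Of the 12 root markers that passed the level filter, 5 (COBL9, EXPA7, EXPA18, RHD6 and TIP2;3) passed it only through wild-type mock, so no count of calls is given for that list. TIP2;3 was at 0.127 ± 0.157 and 0.424 ± 0.377 RPKM in fip37 LEC1:FIP37 with NAA and mock, and at 1.65 ± 0.611 and 19.2 ± 2.05 RPKM in wild type with NAA and mock (SD, n = 3 each). The 6 markers of green tissue summed to 21917 to 26476 RPKM and 21234 to 27337 RPKM in fip37 LEC1:FIP37 with NAA and mock. In wild type they summed to 11359 to 15801 RPKM and 12697 to 15675 RPKM with NAA and mock. RBCS1A made up the largest part of each sum. In each genotype comparison 4 of the 6 were called higher in fip37 LEC1:FIP37 (15.3% of all genes with mock and 19.2% with NAA), and none lower. GLDP1, which was not called, went the other way with overlapping values. It had 107 to 152 RPKM and 105 to 156 RPKM in fip37 LEC1:FIP37 with NAA and mock. Wild type had 110 to 255 RPKM and 150 to 216 RPKM of GLDP1 with NAA and mock. The role of tissue make-up in the levels of IRT1 and FRO2 was not tested.

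**Figure D4:**
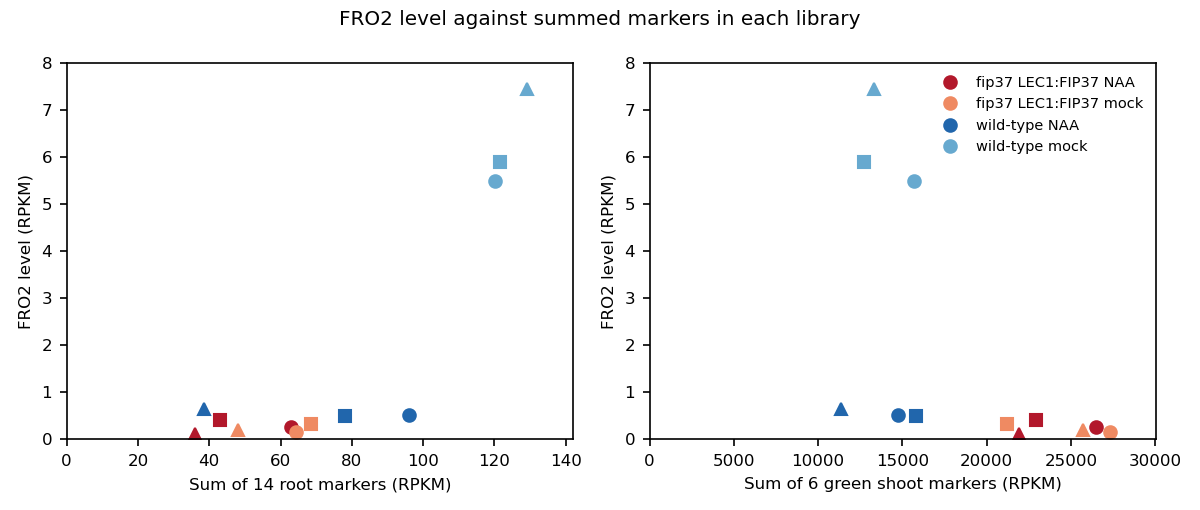
FRO2 level (RPKM) against the summed level of 14 root markers without PYK10 (left) and of 6 green shoot markers (right) in each of the 12 libraries; colours are groups and symbols replicates. The 3 wild-type mock libraries lie apart at 5.48 to 7.44 RPKM of FRO2 with the highest root sums, while the wild-type NAA libraries reach root sums of 38.6 to 96.0 RPKM with FRO2 at 0.491 to 0.637 RPKM. FRO2 and 5 of the 14 root markers passed the level filter only through wild-type mock, and PYK10, left out here, went the other way between the lines.

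Of the 10 loci, FRO3 alone carried an m6A peak, and it did so in all 4 wild-type lists. In TAIR10 coordinates the peak spanned chr1:8150086-8150456 (summit 8150429) and chr1:8150061-8150465 (summit 8150432) in the first and second NAA replicate, and chr1:8150070-8150478 (summit 8150429) and chr1:8150071-8150479 (summit 8150431) in the first and second mock replicate. The summits thus lay within 3 bases of each other. The authors' fold enrichment over input was 2.08 and 1.82 with NAA and 2.36 and 2.1 with mock, with pileups of 94 and 107 reads with NAA and 125 and 124 reads with mock. Of the peaks in the same list, 65.0% and 43.3% had a lower fold with NAA, and 71.8% and 57.2% with mock. Its fold was lower in both NAA replicates than in both mock replicates, with 2.08 against 2.1 at the closest. The median fold of all peaks was also lower in the NAA lists (1.86 and 1.92) than in the mock lists (1.99 and 1.99). The shares of peaks with a lower fold overlapped between NAA and mock. With 2 replicates per group the difference was not tested. FRO3 transcripts did not separate the NAA from the mock libraries in wild type.

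**Figure D5:**
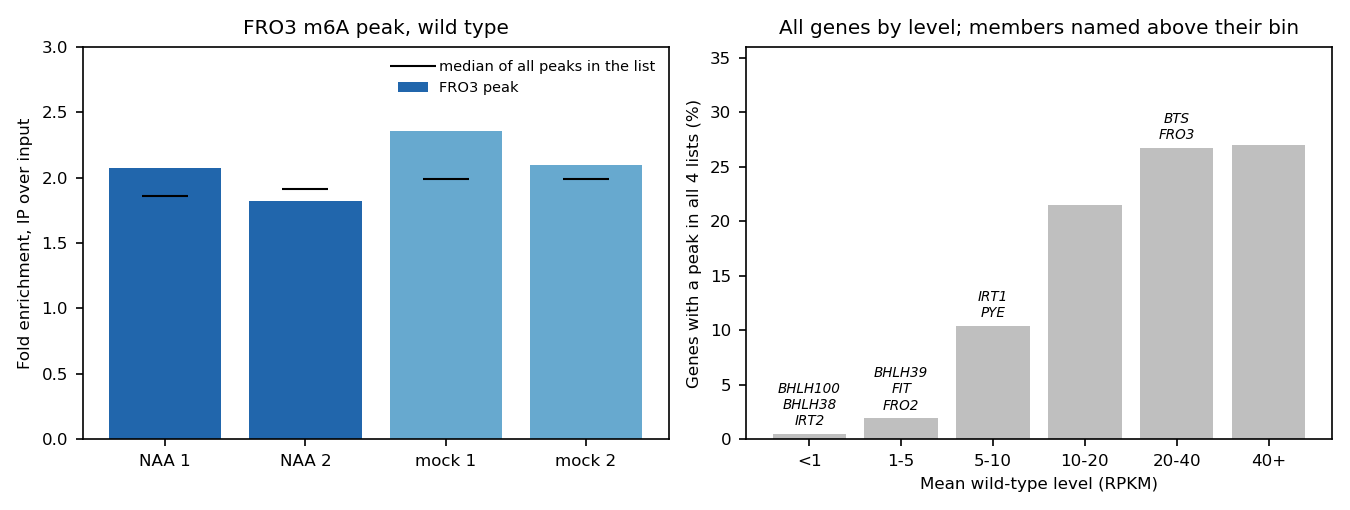
Left, fold enrichment of the FRO3 peak over input in each wild-type list (bars) with the median of all peaks of that list (line). Right, the percentage of all genes with a peak in all 4 wild-type lists by mean wild-type level, with the 10 genes named above their level class; FRO3 and BTS fall in the class of 20 to 40 RPKM, where 26.7% of genes have such a peak. BTS does so only with the third wild-type NAA library included.

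The share of genes with a peak in all 4 wild-type lists rose with transcript level, and was 14.7% over the genes tested that the annotation holds. It was 0.474% of genes under 1 RPKM in wild type, the class of IRT2, BHLH38 and BHLH100, and 1.91% from 1 to 5 RPKM, the class of FRO2, FIT and BHLH39. It was 10.4% from 5 to 10 RPKM, the class of IRT1 and PYE, and 26.7% from 20 to 40 RPKM, the class of FRO3 and BTS. BTS was in that class only with the third wild-type NAA library (36.8 RPKM). Without it BTS would fall in the class of 10 to 20 RPKM, where the share was 21.5%. Such peaks were found in every class, with 71 genes under 1 RPKM and 374 genes from 5 to 10 RPKM. Whether depth limited the detection of peaks on the other 9 genes was not tested. No peak was assigned to any of the 10 in the lists of tmk4 with NAA (1865 peaks), 35S:FIP373A (4294) and 35S:FIP37 (4762). Of the 2702 genes with a peak in all 4 wild-type lists, 16.6%, 18.2% and 21.4% also had one in these lists, in the order just given. These lists differ in form from the wild-type ones, so presence is not compared between the kinds.

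Among the other pathway genes, 3 of 18 regulators and 4 of 14 genes of root iron acquisition had a peak in all 4 wild-type lists. None of the 13 transport, 9 storage and 18 FRO or ZIP genes had. The share was 14.7% over genes tested and 0.474% over genes under 1 RPKM. These lists are small, include genes too low to be tested and were not matched for level, so the counts do not set the lists apart. The regulators were URI, BHLH115 and MYB10, and the acquisition genes AHA2, ABCG37, ORG1 and KELCH-IRON. The ABCG37 peaks were not all at the same site, with the summit at chr3:19829552 in the first mock replicate. It was at chr3:19825596 and chr3:19825597 in the first and second NAA replicate, and at chr3:19825598 in the second mock replicate. For MYB10 the authors' fold was 3.13 and 2.12 with NAA and 2.54 and 2.54 with mock. Its level in the wild-type RNA-seq libraries was only 0.27 to 0.90 RPKM (9 to 24 reads), below the level filter. Peaks were given to genes by summit position alone, and whether other transcripts added to this signal was not tested. AHA2 had a peak in every one of the 7 lists, and its fold in wild type was 1.62 and 1.80 with NAA and 1.31 and 1.79 with mock.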

How the data were processed

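Transcript levels are the RPKM values the authors deposited per gene and library. The submitters' processing notes name STAR 2.5.3a, MACS2 and TAIR10. How reads were counted, with or without strand, and what was done with reads matching several genes was not given in those sources. An RPKM column that names a genotype and no treatment was taken as mock. Each wild-type replicate was called against its own input with MACS 2.2.6 (extension 200 nt, q-value 0.05), per the file headers. These deposited lists give the fold enrichment, the pileup signal at the summit, and the -log10 p-value and q-value. The deposited lists for tmk4, 35S:FIP37 and 35S:FIP373A hold an enrichment score and a score per peak on exons, 1 list per genotype, whose caller and settings were not given.

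The 12 libraries, in 4 groups, entered 1 limma-trend fit of log2(RPKM + 1) (limma 3.58.1, R 4.3.3) over 18072 genes whose mean reached 1 RPKM. A call needs a p-value adjusted by Benjamini-Hochberg of less than 0.05, and fold changes understate those of low genes. The fit was also run on simulated data with a common spread and without the low genes. That run does not bear on low genes or on a library that stands apart. The series text calls the wild-type replicates biological, while the labels do not say that the fip37 LEC1:FIP37 replicates came from separate cultures, so each p-value reflects only the spread among these libraries, which may be technical. Whole reads were taken from the steps of low values within a tolerance of 0.05 reads. Read totals are unknown, so no counting intervals are given.

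Each wild-type peak was given to the TAIR10.1 gene around its summit, and that annotation (32548 identifiers matched) served for names and assignment only. All 10872 peaks of the other lists with a matched identifier overlapped their gene there. Tables were handled with Python 3.11.15 and pandas 2.3.3.

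The 10 genes, the pathway and marker lists and the tests were chosen with earlier results of these data known. Beside the members, the text names up to 3 called genes per list, direction and comparison with the largest change, and the 5 genes most like each of 4 members. BHLH101, IMA1, IMA2, CYP82C4 and the pathway genes with peaks were named after their values were seen where that rule does not name them. Alternatives were a pseudocount of 0.1, no filter, median-ratio scaling, quantile normalization, a replicate block, each library left out, any overlap of a peak and a gene, and a stricter peak threshold. Coverage tracks and sequences were not used here.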

Additional observations from a re-analysis of the deposited data

Results flagged for a closer look

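By limma's test of the difference between the NAA effects of the lines, 2 of the 50 pathway genes were called with all libraries, and neither call was stable. Over all genes 0.636% were called higher and 1.06% lower. For ABCG37, the coumarin exporter gene, the effect in fip37 LEC1:FIP37 minus that in wild type was -1.08 on the log2 scale (limma adjusted p = 0.0482), and the call was lost under 12 of 17 alternatives (adjusted p up to 0.130). For the copper transporter gene COPT2 it was 1.11 (limma adjusted p = 0.0355), also lost under 12 of 17 (adjusted p up to 0.113). For the root aquaporin gene TIP2;3 the same difference was 2.64, given as a description: the gene passed the level filter only through wild-type mock and was already under 1 RPKM in the mock libraries of fip37 LEC1:FIP37.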

How the results depend on the processing

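Limits first: the members near 0 to 10 reads carry large counting error, the third wild-type NAA library sets several values, and depth is known only as a ratio between libraries. FRO3, FIT, PYE and BTS were not called between NAA and mock in fip37 LEC1:FIP37 under any alternative run. Of 64 calls of the pathway and marker genes with the largest changes, 33 held under every alternative run and 31 were lost under at least 1. They include calls of TIP2;3, COBL9, EXPA18 and RHD6, which passed the level filter only through wild-type mock. Whether those calls held is therefore no sign of stability.

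The pathway genes called, with 1 library left out at a time, ranged from 0 to 1 for NAA in fip37 LEC1:FIP37, from 14 to 29 and from 16 to 29 for fip37 LEC1:FIP37 against wild type with mock and with NAA, from 4 to 19 for NAA in wild type, and from 0 to 9 for the difference of the NAA effects. That difference gave 0 without the level filter. The replicate block gave 1, with BTS called under mock (adjusted p = 0.0489) and FIT with NAA (adjusted p = 0.033) between the lines. Same-numbered libraries correlated at -0.10 to 0.40 after removal of group means, and not every library was closest to its own number, so the numbers were not taken to pair samples.

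Over all genes, NAA in fip37 LEC1:FIP37 gave 68 higher and 11 lower calls, against 110 and 15 after quantile normalization and 130 and 71 without the third wild-type NAA library. The difference of the NAA effects gave 80 and 112 without the level filter and 1059 and 1178 without that library.

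Small estimates changed sign. For fip37 LEC1:FIP37 against wild type with NAA, FRO3 was at 0.0651 after quantile normalization, and PYE at 0.000687 after median-ratio scaling and 0.0468 after quantile normalization. For NAA in fip37 LEC1:FIP37, FRO3 was at 0.000392 and 0.0417, and PYE at 0.0091 and 0.019, by the same scalings in that order, and BTS at 0.00261 after quantile normalization. PYE under mock between the lines was at 0.0495 and 0.0493. With 1 library left out, FRO3 and PYE with NAA between the lines ranged from -0.31 to 0.0842 and from -0.18 to 0.25, and PYE under mock from -0.0296 to 0.012. For NAA in fip37 LEC1:FIP37 the ranges were -0.0517 to 0.11 for FRO2, -0.17 to 0.18 for FRO3, -0.11 to 0.0502 for BTS and -0.0794 to 0.0295 for PYE. The cause was not tested. The FRO3 peak stayed in 3 of 4 wild-type lists at a fold of at least 2 and a -log10 q of at least 3.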

Other observations

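IMA1 and IMA2, neighbouring genes for peptides that promote iron uptake, were too low for the level filter and rested on 1 library. IMA1 had 2, 1 and 59 reads in wild type with NAA, against 2, 6 and 2 reads with mock. IMA2 had 7, 7 and 128 reads with NAA, against 9, 8 and 8 reads with mock. The third wild-type NAA library was the only one of the 12 with more than 10 reads of either gene. In fip37 LEC1:FIP37 IMA1 was at no more than 1 read and IMA2 at no more than 3 reads in any library. CYP82C4, whose product modifies coumarins, was listed at 0 in the first and second wild-type NAA libraries and at 1.72 RPKM in the third, against 2.25, 2.60 and 3.49 RPKM with mock. These genes were named after their values were seen.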
